A study of Homo sapiens with 18 samples.

Results

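Amino acids cross membranes through carriers of the solute carrier (SLC) families, and 57 genes of 7 of these families were followed here across the cultures of 1 osteosarcoma (OS) cell line. They were chosen by gene name among the 50119 genes of the table: all genes named in families SLC1 (7 genes), SLC3 (2), SLC6 (19), SLC7 (12, without SLC7A11), SLC36 (4), SLC38 (10) and SLC43 (3).

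As background, cells take up essential amino acids mostly by exchange. The transporter LAT1 (SLC7A5) brings in leucine and other large neutral amino acids while glutamine leaves, ASCT2 (SLC1A5) and the SNAT proteins (SLC38) keep the glutamine pool filled, and a light chain of the SLC7 family reaches the plasma membrane only when joined to a heavy chain of the SLC3 family. When amino acids run short, the kinase GCN2 and the transcription factor ATF4 raise the transcription of several of these carriers together with asparagine synthetase and other genes of the amino acid response. Some members carry other substrates, such as taurine (SLC6A6), creatine (SLC6A8) and GABA (SLC6A12, SLC6A13).

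Polyadenylated RNA was sequenced in 18 libraries of 6 groups, 3 libraries each, all of genotype WT and all labelled as the human OS line Saos-2 (written Soas-2 in the sample labels). D-2 was a flat culture, D-3 cells mixed into Matrigel, DP-3 cells printed in a bioink of methacrylated gelatin and alginate, and IT pieces of xenograft tumor kept on Matrigel, each taken on day 14 of culture. DP-3 day 1 was the printed tissue on day 1. FIT, also given as day 14, was the fresh tumor grown under the skin of female BALB/c nude mice implanted at 4 weeks of age, and served as the in vivo reference. These mice lack T cells but keep other host cells, and neither the labels nor the methods say how mouse reads were treated. Tumors were divided between IT and FIT, and which libraries share a tumor is not stated. The labels do not say whether replicates came from separate cultures or animals, so the p-values measure only the spread between these samples.

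The line was checked against its label before the transporters were read. Summed over 9 osteoblast genes the FPKM (fragments per kilobase of transcript, scaled by the mapped depth of the library) ran from 116 to 313 per library, mostly from SPARC. IBSP was listed at 0 in every library of 5 groups, SP7 in every library of D-2 and DP-3, and alkaline phosphatase (ALPL) did not exceed 0.148 FPKM in any of the 18 libraries. Saos-2 is known for strong ALPL expression, which these values do not show. The libraries are therefore named by their group labels, and which cells they hold was not tested. Library totals ran from 23721666 estimated counts in FIT replicate 3 to 79082786. Of the marker lists of other cell types, the macrophage sum was 19.6 to 117 FPKM, nearly all of it CD68 (18.6 to 115, lowest in FIT replicate 3), while PTPRC and AIF1 did not exceed 0.0641 in any library. The keratinocyte sum was 16.2 to 41.3 FPKM, mostly KRT10 (16.2 to 30.2), but KRT5 measured 0.642 to 2.04 in FIT against at most 0.1001 elsewhere. KRT14 ran from 0.115 to 10.4 in FIT, overlapping the other groups (at most 0.336). KRT1 was listed at 0 in every FIT library and at most 0.0749 elsewhere. The fibroblast sum was 21.3 to 29.2 in FIT against 5.95 to 18.4 elsewhere, and the endothelial sum 3.82 to 6.51 in FIT and IT against 1.03 to 2.29 in the cultures. The skeletal muscle, adipocyte and neuron or glia sums were at most 5.23, 8.71 and 2.65. The fibroblast, KRT5 and endothelial values were thus higher in FIT than in the cultures, and their part in the differences from FIT was not tested. In bulk RNA, fewer cells of a type and less RNA per cell cannot be told apart.

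Because ATF4 dimers are known to bind the C/EBP-ATF response element, the RefSeq promoters of the members (GRCh38.p14, 250 bases before to 50 after the start) were searched for TGATGNAA on both strands, where the opposite strand reads TTNCATCA. An entry was found for 43 of the 57 members, and 6 of these, 13.95%, contained the element, beside 4.46% of 27305 genes. Some genes had entries for several starts, and a gene counted when any of them held the element. The shares were not adjusted for the number of entries, 65 for the members and 35116 over all genes. All 6 were members with a mean of at least 1 FPKM in a group. SLC38A2 and SLC7A5 were not among the 6. The stretches around the element are printed 5′ to 3′ on the strand of the gene, with the element in capitals. They cover the heavy chain gene SLC3A2 and other members described below.
SLC3A2 (chr11:62881725-62881748, + strand): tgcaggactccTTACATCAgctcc
SLC1A5 (chr19:46784893-46784922, - strand): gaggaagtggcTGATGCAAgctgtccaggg
SLC1A4 (chr2:64989381-64989410, + strand): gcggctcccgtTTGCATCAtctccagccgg
SLC1A3 (chr5:36596357-36596386, + strand): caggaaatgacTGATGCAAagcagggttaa
SLC38A1 (chr12:46266502-46266531, - strand): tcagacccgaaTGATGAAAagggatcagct
SLC7A1 (chr13:29595663-29595692, - strand): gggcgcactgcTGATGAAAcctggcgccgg
A match describes these letters only. The element lay on the strand of the gene in SLC1A5, SLC1A3, SLC38A1 and SLC7A1 and on the opposite strand in SLC3A2 and SLC1A4.

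Of the 57 members, 17 reached a mean of at least 5 FPKM in at least 1 group and 23 a mean of at least 1, and 34 stayed below 1 in every group. The filter for testing over all groups, 0.1 FPKM in at least 3 of 18 libraries, was passed by 31 members. The other 26 did not exceed 0.276 FPKM in any library, and 6 of them had at most 12 estimated counts in every library. SLC6 was the family with most members below the filter, with 8 of 19 passing, whereas all 3 SLC43 genes and 7 of 10 SLC38 genes passed. Many SLC6 members are best known from neurons and glia.

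The members together summed to between 296 FPKM (FIT replicate 3) and 493 FPKM (D-3 replicate 2), which was 0.108% to 0.202% of all FPKM of a library. Only 4 genes made up 59.6% to 71.4% of that sum: SLC38A2, SLC1A5, SLC3A2 and SLC7A5, which encode a sodium-coupled glutamine carrier, a neutral amino acid exchanger, and the heavy and light chain of LAT1. The largest shift within the sum was between SLC38A2 and SLC3A2. In D-2, DP-3 and FIT the former was the higher of the pair in every library, and in D-3 the order was the opposite in every library.

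**Figure D1:**
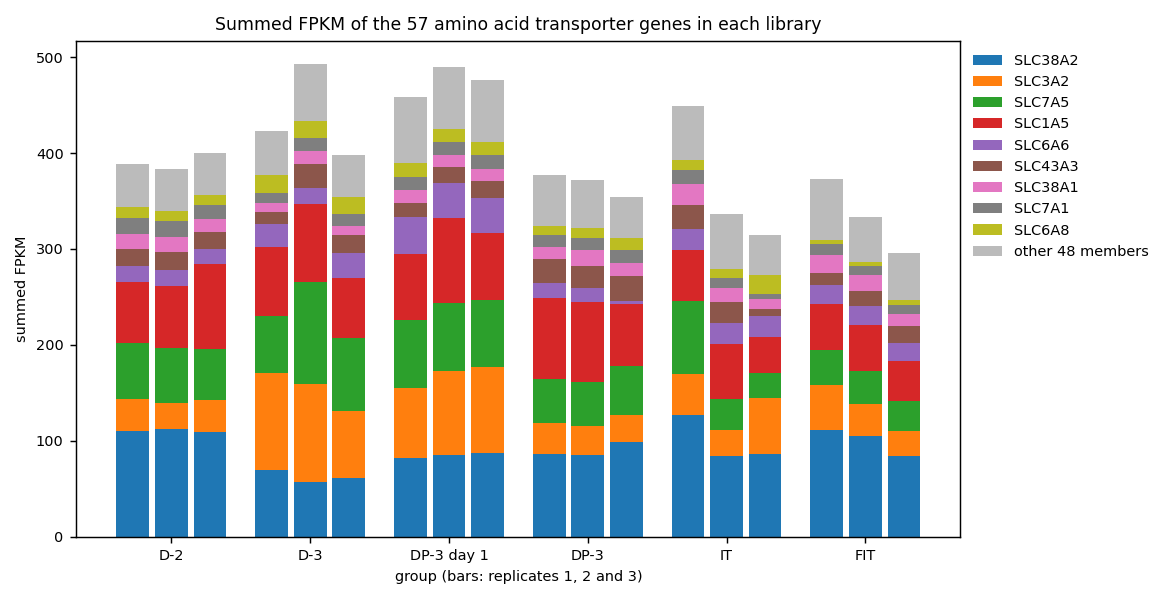
Summed FPKM of the 57 amino acid transporter genes (vertical axis) in each of the 18 libraries, stacked by gene, with 9 genes shown separately and the other 48 in grey. The SLC3A2 segment is widest in D-3 and DP-3 day 1, the SLC38A2 segment is narrowest in D-3, and the sums run from 296 to 493 FPKM.

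A gene was called when edgeR's quasi-likelihood test gave a Benjamini-Hochberg adjusted p below 0.05 over all genes tested and the change was at least 2-fold. In a single test over all 6 groups, 21 of 31 members differed at an adjusted p below 0.05, where 37.3% of all genes did. Fold changes were scaled by TMM (trimmed mean of M values), which does not match a ratio of FPKM exactly. Over genes of at least 1 FPKM in both groups, the TMM log2 change was on median 0.27 higher than the log2 FPKM ratio in DP-3 against DP-3 day 1, 0.15 higher in D-2 against FIT and 0.25 lower in D-3 against D-2. No called member changed direction under any scaling or other setting tried.

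D-2 against FIT asks how flat culture differs from the tumor. Of 28 members tested, 5 were called, 2 higher and 3 lower, where 14.6% of all genes were called (3.83% higher and 10.8% lower). The creatine carrier SLC6A8 and the vesicular carrier SLC6A17 rose by 1.33 and 1.76 on the log2 scale, and the glycine carrier SLC6A9, the GABA carrier SLC6A13 and the orphan SLC6A16 fell, with log2 changes of -1.41, -2.39 and -1.22. All 5 belong to SLC6. SLC6A13 was under 0.1 FPKM in all 3 D-2 libraries and passed the filter only through FIT, so the direction of its call was set by the filter. Another 5 members passed the adjusted p below 2-fold, all higher, so that 10 passed it at any fold (7 higher and 3 lower, beside 30.9% of all genes, 16.0% higher and 14.9% lower): SLC7A5, SLC7A1, SLC1A5, SLC36A4 and SLC43A3, with log2 changes of 0.89, 0.85, 0.80, 0.47 and 0.43. The median log2 change of the 28 members was 0.03, beside -0.09 over all genes. The count was 3 without D-2 replicate 1, D-2 replicate 3 or FIT replicate 1.

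D-3 against FIT asks the same of cells in Matrigel. Of 30 members tested, 5 were called, 4 higher and 1 lower, where 6.45% of all genes were called (4.29% higher and 2.17% lower). Among the higher members, the heavy chain SLC3A2 and its partner SLC7A5 rose by 1.29 and 1.18 on the log2 scale and SLC6A8 by 1.85. The glutamate carrier SLC1A1 fell by 3.17. SLC1A4, at 0.99, and SLC38A2, at -0.73, passed the adjusted p below 2-fold. At any fold 7 members passed it, 5 higher and 2 lower, beside 8.29% of all genes (5.11% higher and 3.17% lower). The median was 0.10, beside 0.02 over all genes. The count moved with each library left out. It was 1 without D-3 replicate 3 or FIT replicate 2, 2 without D-3 replicate 1 or FIT replicate 1, and 3 without D-3 replicate 2. Without FIT replicate 3 it was 7.

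DP-3 against FIT asks it of printed tissue. Of 30 members tested, 3 were called, where 4.82% of all genes were (1.66% higher and 3.16% lower): SLC6A8 rose by 1.303, and the cationic carrier SLC7A2 and the glycine carrier SLC6A9 fell, with log2 changes of -2.14 and -1.29. SLC1A5, SLC43A3, SLC7A5 and SLC7A1 passed the adjusted p below 2-fold, at log2 changes of 0.87, 0.84, 0.60 and 0.53. At any fold 7 members passed it, 5 higher and 2 lower, beside 8.4% of all genes (4.21% higher and 4.19% lower). The median was 0.13, beside -0.06 over all genes. The count was 0 without FIT replicate 1, 1 without any one of the 3 DP-3 libraries and 5 without FIT replicate 3.

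IT against FIT compares the cultured tumor piece with the fresh one. None of 30 members was called by edgeR's quasi-likelihood test, where 0.0% of all genes were, and 3 members had an unadjusted p below 0.05: SLC6A8 at a log2 change of 1.46, SLC1A3 at 1.34 and SLC43A1 at 0.68. The lowest adjusted p was 0.184, for SLC6A8. DESeq2 called 2 members, SLC6A8 and SLC1A3, beside 661 of all 21183 genes tested. A single edgeR fit of all 18 libraries called the same 2, beside 553 of 21183 genes.

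DP-3 against DP-3 day 1 follows the printed tissue over time. Of 30 members tested, 2 were called, both lower on day 14, where 7.56% of all genes were called (1.81% higher and 5.76% lower): SLC3A2 fell by 1.18 and the branched-chain carrier SLC43A2 also by 1.18 on the log2 scale. SLC43A3 (0.83), SLC1A3 (0.47) and SLC38A1 (0.43) were higher and SLC1A4 (-0.78) lower at an adjusted p below 0.05 and under 2-fold. At any fold 6 members passed it, 3 in each direction, beside 22.1% of all genes (12.2% higher and 9.91% lower). SLC1A3 and SLC38A1 overlapped between the groups in FPKM. The median was -0.14, beside -0.06 over all genes. The count was 4 without DP-3 replicate 3 and 1 without DP-3 day 1 replicate 3.

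D-3 against D-2 compares Matrigel with the flat culture. Of 29 members tested, 8 were called, 4 in each direction, where 18.5% of all genes were called (14.6% higher and 3.95% lower). SLC7A8 (1.93), SLC6A12 (1.82), SLC3A2 (1.295) and SLC6A16 (1.26) rose, and SLC1A1, SLC7A6, SLC6A17 and SLC38A2 fell, with log2 changes of -1.56, -1.45, -1.40 and -1.07. SLC7A8 and SLC6A12 were under 0.1 FPKM in all 3 D-2 libraries and passed the filter only through D-3, which set the direction of their calls. For 6 of the 29 members, 20.7%, the difference was called and the D-2 and D-3 libraries lay on opposite sides of the FIT mean, as they did for 7.88% of all genes tested. The 6 include SLC7A8 and SLC6A12, so no excess is read from these shares. A further 7 passed the adjusted p below 2-fold, among them SLC1A4 (0.97), SLC43A2 (0.86) and SLC6A8 (0.49), which were higher, and SLC38A1 (-0.72), SLC36A4 (-0.71) and SLC7A1 (-0.62), which were lower. At any fold 15 passed it, 8 higher and 7 lower, beside 35.5% of all genes (19.2% higher and 16.3% lower). The median was 0.06, beside 0.11 over all genes. These comparisons share libraries (FIT in 4 of them, D-3, D-2 and DP-3 in others), so their values are not independent of each other.

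**Figure D2:**
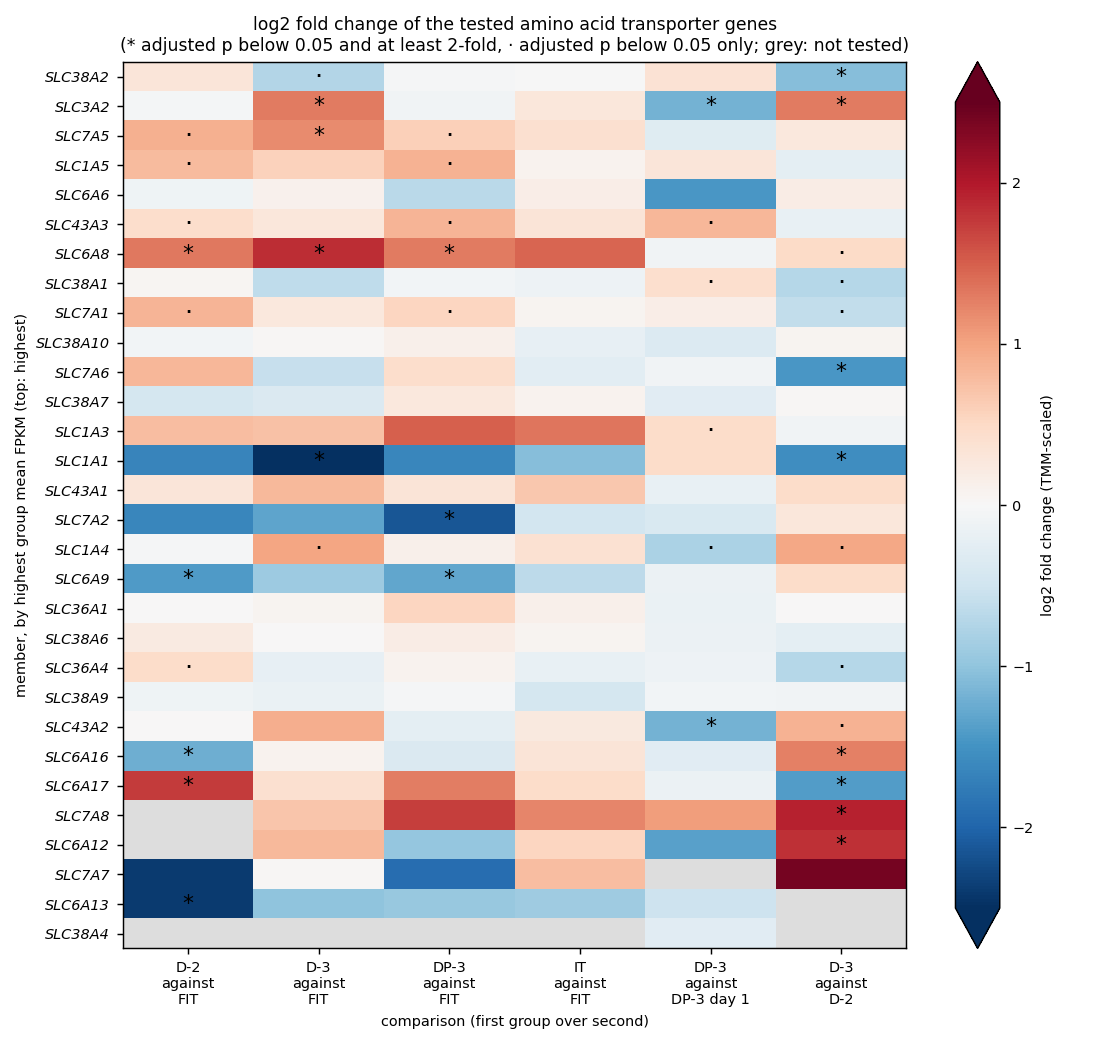
TMM-scaled log2 fold change (color, blue lower and red higher in the first group) of 30 tested members (rows, by highest group mean FPKM) in the 6 comparisons (columns), with called genes starred and grey where a member did not pass the filter. SLC6A8 is red in all 4 comparisons against FIT and starred in 3, and SLC3A2 is starred in 3 comparisons.

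SLC3A2 (chr11:62856102-62888875, ENSG00000168003) encodes CD98hc, the heavy chain that the light chains LAT1, LAT2, y+LAT1 and y+LAT2 need at the plasma membrane. It measured 101, 102 and 69.0 FPKM in D-3 and 73.0, 87.9 and 89.7 in DP-3 day 1. It measured 32.5, 27.6 and 33.3 in D-2, 33.0, 30.7 and 28.0 in DP-3, 43.2, 27.2 and 58.4 in IT, and 47.3, 33.5 and 26.1 in FIT. All 6 libraries of D-3 and DP-3 day 1 lay above all 12 others, and the other 4 groups overlapped each other. By edgeR's quasi-likelihood test (p adjusted by Benjamini-Hochberg), the log2 change was 1.295 ± 0.176 (SE, adjusted p = 0.00309) in D-3 against D-2 and -1.18 ± 0.11 (adjusted p = 0.00182) in DP-3 against DP-3 day 1, and both calls held without any one library. In D-3 against FIT it was 1.29 ± 0.26 (adjusted p = 0.0228), and the call was lost without D-3 replicate 1, D-3 replicate 3 or FIT replicate 2 (adjusted p up to 0.0847). The log2 changes of D-2, DP-3 and IT against FIT were -0.04, -0.09 and 0.27, none called. SLC3A1, the other heavy chain, known from kidney and gut, did not exceed 0.0456 FPKM in any library.

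SLC7A5 (chr16:87830023-87869507, ENSG00000103257), the LAT1 light chain, measured 58.9, 57.6 and 53.6 FPKM in D-2, 59.1, 107 and 76.4 in D-3, 70.4, 70.9 and 70.0 in DP-3 day 1, and 45.1, 45.0 and 51.5 in DP-3. It measured 76.5, 32.8 and 26.4 in IT and 35.8, 34.6 and 31.9 in FIT. All libraries of D-2, D-3, DP-3 day 1 and DP-3 lay above the 3 of FIT, while IT spread to both sides of it, with replicate 1 high. The log2 change against FIT was 1.18 ± 0.22 (SE, edgeR adjusted p = 0.0205) in D-3, 0.89 ± 0.10 (adjusted p = 0.00213) in D-2 and 0.60 ± 0.14 (adjusted p = 0.0454) in DP-3, the last 2 under 2-fold. The D-3 call was lost without D-3 replicate 2, D-3 replicate 3, FIT replicate 1 or FIT replicate 2 (adjusted p up to 0.0796). Between D-3 and D-2 the log2 change was 0.26 ± 0.21 (adjusted p = 0.362).

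SLC7A5 has short pseudogene copies that can take up its reads, and how reads were divided was not stated in the sources used here. SLC7A5P2 was listed at 32.4 FPKM in D-3 replicate 1 and 23.9 in IT replicate 3, the libraries with the lowest SLC7A5 value of their groups, and between 0.643 and 10.7 in the other libraries. Its part in the SLC7A5 values was not tested. The ratio of SLC7A5 to SLC3A2, both in FPKM, was 1.84 ± 0.24 (SD, n = 3) in D-2 and 1.56 ± 0.25 in DP-3. It was 0.911 ± 0.286 in D-3, 0.850 ± 0.099 in DP-3 day 1, 1.004 ± 0.234 in FIT and 1.14 ± 0.66 in IT. In FPKM the light chain thus exceeded the heavy chain in every library of D-2 and DP-3 and in no library of DP-3 day 1.

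**Figure D3:**
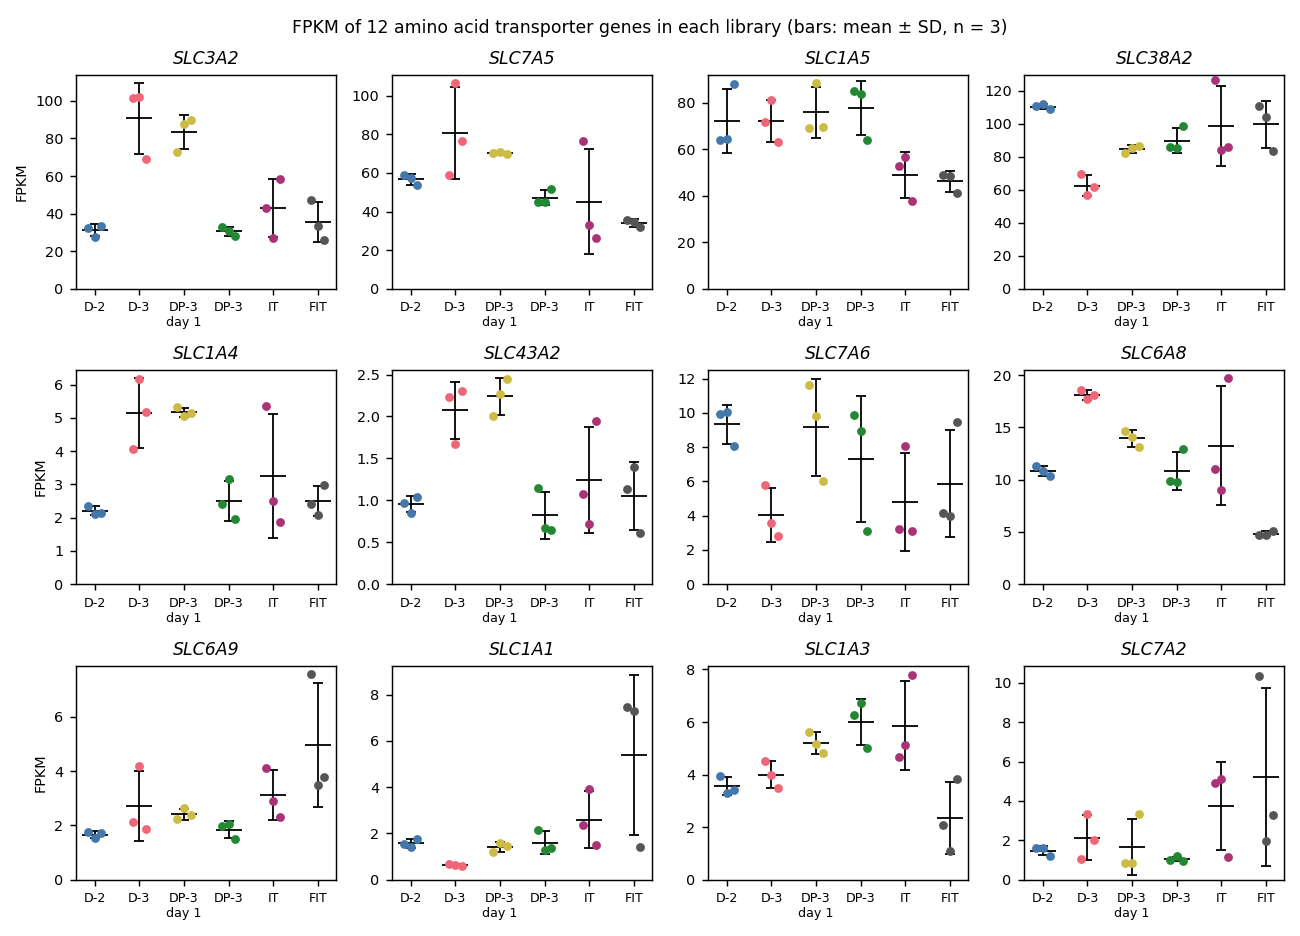
FPKM of 12 members in each library (vertical axes, from 0) by group (horizontal axes), with each point 1 library and bars the mean ± SD (n = 3). SLC3A2, SLC1A4 and SLC43A2 are highest in D-3 and DP-3 day 1, SLC6A8 is lowest in FIT (4.66 to 5.10), and SLC1A1, SLC6A9 and SLC7A2 spread widely within FIT.

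Of the other light chains among the members, SLC7A6 (y+LAT2, chr16:68264516-68301823), which exchanges cationic for neutral amino acids, was the most abundant. SLC7A11 was left out of the members and was not compared. It measured 9.92, 10.1 and 8.04 FPKM in D-2 and 5.81, 3.55 and 2.79 in D-3, without overlap. It measured 11.6, 9.79 and 6.05 in DP-3 day 1, 9.86, 8.93 and 3.10 in DP-3, 3.22, 8.07 and 3.09 in IT, and 4.15, 3.97 and 9.47 in FIT. In each of the last 3 groups 1 library stood apart from the other two. The log2 change in D-3 against D-2 was -1.45 ± 0.27 (SE, edgeR adjusted p = 0.00736) and held without any one library. SLC7A6OS overlaps SLC7A6 on the other strand and measured 3.67 to 9.04 FPKM, highest in D-3 replicate 1. The kit marks strand, but whether the counting used it was not stated in the sources used here. The test over all 6 groups gave an adjusted p of 0.0993 for SLC7A6.

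The remaining light chains among the members were low. SLC7A8 (LAT2) measured 0.0352, 0.0830 and 0.0854 FPKM in D-2 and 0.283, 0.350 and 0.301 in D-3, and its log2 change there was 1.93 ± 0.43 (SE), in a direction that the filter set. It measured between 0.0534 and 1.003 in the other groups. SLC7A7 (y+LAT1) lay between 0.00322 and 0.501 FPKM and passed no test between pairs of groups, though its adjusted p over the 6 groups was 0.0233. SLC7A9, the partner of SLC3A1, reached 0.276 in 1 library of DP-3 day 1, and SLC7A10 and SLC7A13 had at most 4 estimated counts in any library.

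SLC38A2 (SNAT2, chr12:46358188-46372773, ENSG00000134294), a carrier of small neutral amino acids that is known to be induced by amino acid shortage, had the highest group mean of all members. It measured 111, 112 and 109 FPKM in D-2, 69.3, 56.9 and 61.6 in D-3, 82.0, 85.2 and 86.8 in DP-3 day 1, and 85.8, 85.1 and 98.6 in DP-3. It measured 126, 83.9 and 85.8 in IT and 111, 104 and 83.7 in FIT. The 3 D-3 libraries were the lowest of all 18. Its log2 change was -1.07 ± 0.11 (SE, edgeR adjusted p = 0.00169) in D-3 against D-2, where it stayed below 2-fold without D-3 replicate 2 (-0.98), and -0.73 ± 0.18 (adjusted p = 0.0417) in D-3 against FIT.

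SLC38A1 (SNAT1) measured 15.96, 16.1 and 13.9 FPKM in D-2, 8.88, 14.1 and 10.1 in D-3, 12.8, 12.8 and 13.1 in DP-3 day 1, 12.7, 16.2 and 14.4 in DP-3, 21.6, 13.98 and 10.04 in IT, and 19.7, 16.9 and 13.03 in FIT. The groups overlapped widely, and the adjusted p over the 6 groups was 0.0793. SLC38A7, a lysosomal glutamine carrier, had means of 4.24 ± 0.96 FPKM (SD, n = 3) in FIT, 4.50 ± 0.62 in IT, 4.63 ± 0.39 in DP-3, 6.84 ± 1.37 in DP-3 day 1, 3.43 ± 1.09 in D-3 and 2.81 ± 0.44 in D-2. SLC38A7 differed over the 6 groups (adjusted p = 0.0137). SLC38A10 had means of 6.27 ± 0.34 in FIT, 5.48 ± 1.31 in IT, 6.32 ± 1.04 in DP-3, 9.58 ± 1.35 in DP-3 day 1, 6.71 ± 1.65 in D-3 and 5.40 ± 0.87 in D-2, with an adjusted p of 0.116 over the groups. Both had their highest mean in DP-3 day 1. SLC38A9, the lysosomal arginine sensor, and SLC38A6 lay between 1.02 and 4.23 FPKM in all libraries and passed no test.

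Among the exchangers and glutamate carriers of SLC1, SLC1A5 (ASCT2, chr19:46774883-46788594), the main glutamine exchanger of many cancer cells, measured 63.9, 64.5 and 88.2 FPKM in D-2, 72.0, 81.4 and 63.3 in D-3, 69.3, 88.7 and 69.7 in DP-3 day 1, and 85.2, 84.1 and 64.2 in DP-3. It measured 52.9, 56.5 and 37.8 in IT and 48.8, 48.7 and 41.0 in FIT. All 12 libraries of cultured cells lay above all 6 of tumor tissue. Against FIT the log2 change was 0.80 ± 0.16 (SE, edgeR adjusted p = 0.0109) in D-2 and 0.87 ± 0.15 (adjusted p = 0.0224) in DP-3, both under 2-fold.

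SLC1A4 (ASCT1), which carries serine, alanine and cysteine, measured 4.07, 6.18 and 5.18 FPKM in D-3 and 5.32, 5.06 and 5.14 in DP-3 day 1. It measured 2.36, 2.11 and 2.14 in D-2, 2.42, 3.15 and 1.96 in DP-3, 5.37, 2.49 and 1.87 in IT, and 2.41, 2.09 and 2.99 in FIT. Apart from IT replicate 1, the D-3 and DP-3 day 1 libraries lay above all others. The log2 changes, 0.97 ± 0.17 (SE, edgeR adjusted p = 0.0065) in D-3 against D-2, 0.99 ± 0.21 (adjusted p = 0.0303) in D-3 against FIT and -0.78 ± 0.15 (adjusted p = 0.0133) in DP-3 against DP-3 day 1, all fell under 2-fold.

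SLC1A1 (EAAT3, chr9:4490468-4587469) takes up glutamate, aspartate and cysteine. It measured 7.48 and 7.29 FPKM in FIT replicates 1 and 2 but 1.42 in FIT replicate 3. It measured 0.665, 0.628 and 0.601 in D-3, 1.54, 1.39 and 1.77 in D-2, 1.18, 1.57 and 1.46 in DP-3 day 1, 2.16, 1.28 and 1.35 in DP-3, and 2.35, 3.92 and 1.48 in IT. The 3 D-3 libraries were the lowest of all 18 and close together, and FIT replicate 3 lay among the cultures. The log2 change was -3.17 ± 0.58 (SE, edgeR adjusted p = 0.0186) in D-3 against FIT, a call lost without D-3 replicate 1, D-3 replicate 3, FIT replicate 1 or FIT replicate 2 (adjusted p up to 0.094). Against D-2 it was -1.56 ± 0.21 (adjusted p = 0.00289), a call that held without any one library. SPATA6L overlaps it on the other strand.

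SLC1A3 (EAAT1) measured 2.08, 1.11 and 3.84 FPKM in FIT, 4.66, 5.12 and 7.81 in IT, 6.25, 6.71 and 5.03 in DP-3, and 5.63, 5.15 and 4.81 in DP-3 day 1. It measured 3.95, 3.31 and 3.40 in D-2 and 4.50, 4.003 and 3.47 in D-3. FIT held the 2 lowest values. The log2 change in IT against FIT was 1.34 ± 0.43 (SE, edgeR adjusted p = 0.274). SLC1A3 differed over the 6 groups (adjusted p = 0.0101).

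Of the SLC6 carriers, SLC6A8 (chrX:153687926-153696588, ENSG00000130821), which imports creatine, separated FIT from all other groups. It measured 4.67, 4.66 and 5.10 FPKM in FIT. It measured 11.3, 10.8 and 10.4 in D-2, 18.6, 17.7 and 18.05 in D-3, 14.7, 14.05 and 13.1 in DP-3 day 1, 9.83, 9.75 and 12.9 in DP-3, and 11.003, 8.98 and 19.7 in IT. Every library outside FIT lay above the 3 FIT libraries, and D-3 lay above D-2, DP-3 day 1 and DP-3 without overlap. The log2 change against FIT was 1.85 ± 0.14 (SE, edgeR adjusted p = 0.000931) in D-3, 1.33 ± 0.10 (adjusted p = 0.00134) in D-2, 1.303 ± 0.175 (adjusted p = 0.0122) in DP-3 and 1.46 ± 0.29 (adjusted p = 0.184) in IT. The D-2 and D-3 calls held without any one library, and the DP-3 call was lost without FIT replicate 1 (adjusted p = 0.0563). The pseudogene copy SLC6A10P did not exceed 0.0362 FPKM. SLC6A8 had the smallest adjusted p of all members over the 6 groups, 0.000369.

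SLC6A6, the taurine carrier, measured 38.7, 36.1 and 36.5 FPKM in DP-3 day 1 and 15.7, 14.5 and 3.88 in DP-3, without overlap. It measured 16.5, 16.4 and 15.9 in D-2, 23.97, 16.5 and 25.3 in D-3, 21.9, 22.3 and 21.2 in IT, and 19.2, 19.8 and 19.6 in FIT. DP-3 day 1 was the highest group and DP-3 replicate 3 the lowest library. SLC6A6 was called in none of the 6 comparisons and differed over the 6 groups (adjusted p = 0.025).

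SLC6A9 (GLYT1, chr1:43991500-44031467), which imports glycine, measured 7.58, 3.48 and 3.80 FPKM in FIT, 1.76, 1.52 and 1.71 in D-2 and 1.97, 2.06 and 1.48 in DP-3. It measured 2.12, 4.20 and 1.86 in D-3, 2.25, 2.64 and 2.37 in DP-3 day 1, and 4.11, 2.90 and 2.30 in IT. D-2, DP-3 and DP-3 day 1 lay below FIT without overlap, and D-3 and IT overlapped it. The log2 change was -1.41 ± 0.29 (SE, edgeR adjusted p = 0.012) in D-2 against FIT, which held without any one library. In DP-3 against FIT it was -1.29 ± 0.30 (adjusted p = 0.0392), a call that remained in 1 of 6 fits without 1 library and was lost without any one DP-3 library, FIT replicate 1 or FIT replicate 2 (adjusted p up to 0.107).

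The other called SLC6 members were low, all at or below 1.05 FPKM in every library. SLC6A17, which fills synaptic vesicles with neutral amino acids, measured 0.761, 0.846 and 0.751 FPKM in D-2, 0.190, 0.404 and 0.466 in D-3 and 0.155, 0.299 and 0.316 in FIT, so that D-2 stood above both. SLC6A16 showed the opposite, with 0.281, 0.370 and 0.204 in D-2, 0.872, 0.799 and 0.790 in D-3 and 0.735, 0.718 and 0.771 in FIT. The SLC6A17 call in D-2 against FIT held without any one library, and its call against D-3 was lost without D-2 replicate 1 or D-2 replicate 2 (adjusted p up to 0.0622). The SLC6A16 call in D-2 against FIT was lost without D-2 replicate 1, D-2 replicate 3, FIT replicate 1 or FIT replicate 2 (adjusted p up to 0.084), and its call in D-3 against D-2 without D-2 replicate 1 or D-2 replicate 3 (adjusted p up to 0.063).

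The GABA carriers SLC6A12 and SLC6A13 stayed near the limit of the filter. SLC6A12 (BGT1), which also carries betaine, measured 0.0974, 0.0981 and 0.0724 in D-2 and 0.563, 0.301 and 0.288 in D-3. SLC6A13 (GAT2) measured 0.00993, 0.0589 and 0.0622 in D-2 and 0.379, 0.181 and 0.222 in FIT. The SLC6A13 call was lost in each of the 3 fits without 1 D-2 library (adjusted p from 0.0561 to 0.0784). In the fits without 1 FIT library, SLC6A13 no longer passed the filter.

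The cationic carriers SLC7A1 (CAT1) and SLC7A2 (CAT2) bring in arginine, lysine and ornithine. SLC7A1 measured 16.4, 15.7 and 15.1 FPKM in D-2, 10.998, 13.6 and 11.99 in D-3, 13.8, 12.9 and 14.9 in DP-3 day 1, 12.6, 12.99 and 13.03 in DP-3, 14.2, 10.9 and 5.56 in IT, and 10.7, 9.01 and 9.44 in FIT. D-2 was the highest group and lay above D-3 and FIT without overlap. SLC7A2 measured 10.4, 1.98 and 3.27 in FIT and 1.015, 1.19 and 0.968 in DP-3, and 1.63, 1.59 and 1.22 in D-2. It measured 1.06, 3.33 and 2.01 in D-3, 0.843, 0.843 and 3.32 in DP-3 day 1, and 4.91, 5.12 and 1.14 in IT. FIT replicate 1 held the highest value and the groups other than DP-3 and D-2 overlapped FIT. The log2 change in DP-3 against FIT was -2.14 ± 0.53 (SE, edgeR adjusted p = 0.0479), and the call was lost without FIT replicate 1 or any one DP-3 library (adjusted p up to 0.128).

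Within SLC43, SLC43A1 (LAT3) and SLC43A2 (LAT4) let branched-chain amino acids pass without a heavy chain, whereas SLC43A3 is known as a carrier of purine bases. SLC43A2 (chr17:1569268-1628840) measured 2.23, 1.68 and 2.31 FPKM in D-3 and 2.01, 2.26 and 2.44 in DP-3 day 1, 0.969, 0.848 and 1.04 in D-2, 1.14, 0.668 and 0.651 in DP-3, 1.08, 0.713 and 1.95 in IT, and 1.14, 1.40 and 0.611 in FIT. Its order of groups was like that of SLC3A2 and SLC1A4, with IT replicate 3 within the range of the high groups. The log2 change in DP-3 against DP-3 day 1 was -1.18 ± 0.23 (SE, edgeR adjusted p = 0.0133), and the adjusted p was 0.0508 without DP-3 day 1 replicate 3.

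SLC43A3 measured 24.4, 23.1 and 25.3 FPKM in DP-3, 12.4, 14.9 and 16.9 in FIT and 15.0, 16.5 and 17.8 in DP-3 day 1, so that DP-3 lay above both without overlap. It measured 17.6, 18.8 and 17.2 in D-2, 13.2, 24.5 and 18.5 in D-3, and 25.3, 22.4 and 7.73 in IT, where replicate 3 was the lowest library of all. SLC43A1 had means of 2.88 ± 0.51 FPKM (SD, n = 3) in FIT, 4.59 ± 0.996 in IT, 3.28 ± 0.32 in DP-3, 4.49 ± 0.83 in DP-3 day 1, 5.25 ± 0.71 in D-3 and 3.19 ± 0.24 in D-2. SLC43A1 differed over the 6 groups (adjusted p = 0.0304). The proton-coupled SLC36A1 and SLC36A4 lay between 1.57 and 4.30 FPKM in all libraries, and both differed over the 6 groups (adjusted p of 0.0232 and 0.0397).

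The other genes of the amino acid pathway were read from 5 lists. Of 24 genes of the amino acid response, 14 (58.3%, beside 4.29% of all genes) were called higher and 0 lower in D-3 against FIT, with a median log2 change of 1.23 beside 0.02 over all genes. In D-3 against D-2, 13 (54.2%, beside 14.6%) were higher and 0 lower, with a median of 1.18 beside 0.11. In DP-3 against DP-3 day 1, 0 were higher and 6 lower (beside 5.76% of all genes), with a median of -0.51 beside -0.06, and in IT against FIT none was called at a median of 0.63. In D-2 against FIT 2 were higher (8.33%, beside 3.83%), STC2 at 1.22 and PSPH at 1.07, and 4 lower (16.7%, beside 10.8%). In DP-3 against FIT 1 was lower (4.17%, beside 3.16%) and 0 higher (beside 1.66%).

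The response genes with the largest changes in D-3 against FIT were DDIT3 (CHOP, 3.46 on the log2 scale), ASNS (asparagine synthetase, 2.72), DDIT4 (an inhibitor of mTORC1, 2.71) and TRIB3 (2.35). DDIT3 measured 145, 64.6 and 112 FPKM in D-3, 26.0, 30.2 and 21.8 in DP-3 day 1, 49.9, 18.9 and 36.2 in IT, and 11, 9.61 and 7.30 in FIT. It measured 5.38, 4.77 and 3.70 in D-2 and 7.29, 8.36 and 5.97 in DP-3. D-3 lay above all other groups, and IT and DP-3 day 1 lay above D-2, DP-3 and FIT. ASNS measured 25.3, 23.8 and 26.9 in D-3, and no more than 13.6 in any other library. In D-3 against D-2 the largest were DDIT4 (4.50), DDIT3 (4.28), ATF3 (3.69) and TRIB3 (3.00). In DP-3 against DP-3 day 1 they were DDIT4 (-2.96), ATF3 (-1.85), DDIT3 (-1.59) and NUPR1 (-1.20). In D-2 against FIT, DDIT4, ATF3, CHAC1 and SESN2 had log2 changes of -1.83, -1.67, -1.38 and -1.34, all called, and in DP-3 against FIT, DDIT4 fell by 1.19. ATF4 itself was called in none of the 6 comparisons. Its log2 change in D-3 against FIT was 1.71 (edgeR adjusted p = 0.135), with 157, 24.9 and 40.9 FPKM in D-3 and 21.9, 27.8 and 15.1 in FIT. In DP-3 against DP-3 day 1 it was -0.37 (edgeR adjusted p = 0.0479), under 2-fold.

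**Figure D4:**
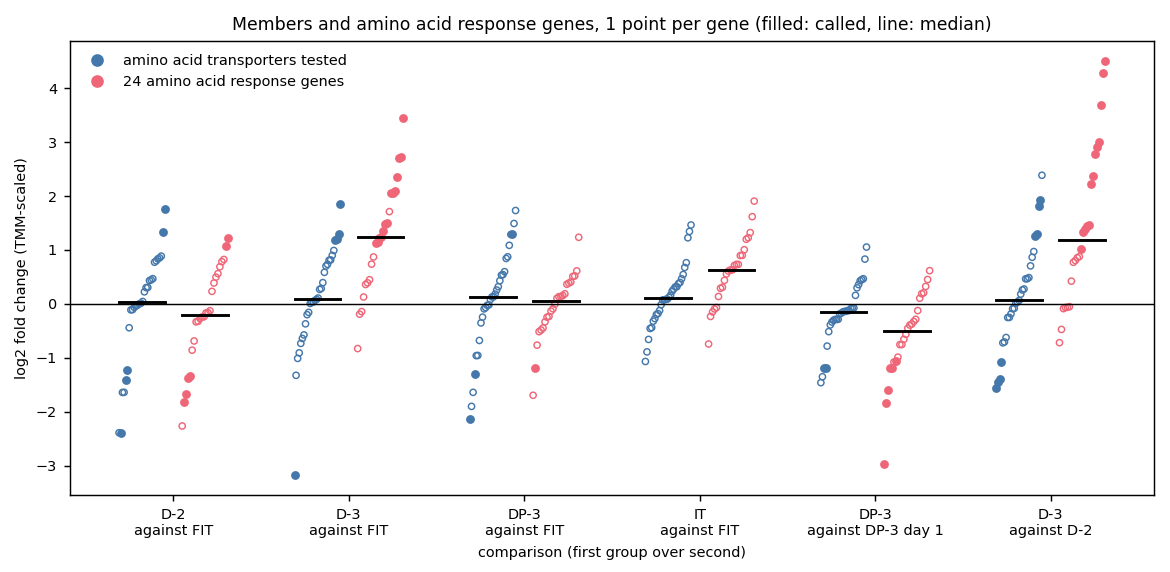
TMM-scaled log2 fold change (vertical axis) of each tested amino acid transporter (blue) and each of 24 amino acid response genes (red) in the 6 comparisons, 1 point per gene, with filled points called and black lines the medians. The response genes' median is 1.23 in D-3 against FIT and 1.18 in D-3 against D-2, while the transporters' medians stay between -0.14 and 0.13 in all 6 comparisons.

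Among the 20 cytosolic aminoacyl-tRNA synthetases, which charge tRNAs with amino acids, only AARS1 and WARS1 were called, both higher in D-3 against FIT (2.07 and 1.13 on the log2 scale) and against D-2 (1.97 and 1.54). Of 33 genes of amino acid sensing by mTORC1, 4 (12.1%) fell in D-2 against FIT, a share near the 10.8% of all genes, among them SESN3, SESN2 and CASTOR1, with log2 changes of -2.04, -1.34 and -1.11. RRAGA (1.81) and the leucine sensor SESN2 (1.48) rose in D-3 against FIT (6.06% of the list, beside 4.29% of all genes). In DP-3 against FIT LAMTOR1 rose (1.01) while WDR24 fell by 1.23. Each was 3.03% of the list, beside 1.66% of all genes called higher and 3.16% lower. In D-3 against D-2, 4 rose (12.1%, beside 14.6% of all genes) and 1 fell (3.03%, beside 3.95%). SESN2 (2.79), SESN3 (1.94), RRAGA (1.74) and RRAGD (1.38) were higher and RPTOR, a part of mTORC1, was lower (-1.05). In DP-3 against DP-3 day 1 SESN2 fell by 1.05 (3.03% of the list, beside 5.76% of all genes called lower). SESN2 stands in the response list as well.

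Of 20 carriers outside the member families, the lysosomal peptide and histidine carrier SLC15A3 had log2 changes of -4.19 in D-2 and -2.80 in DP-3 against FIT, and of 3.29 in D-3 against D-2. It measured 0.0406 to 0.0873 FPKM in D-2, under the filter, so the filter set the direction of both calls with D-2. SLC16A10, a carrier of aromatic amino acids, rose in D-2 against FIT (1.27) and SLC15A4 in D-3 against FIT (1.01). In D-3 against D-2, the mitochondrial SLC25A29 (1.63) rose and SLC25A13 fell by 1.02. SLC15A2 was also called there, at 0.106 to 0.192 FPKM in D-3 and at most 0.0176 in D-2, where again only D-3 passed the filter. Of 23 amino acid enzymes, the alanine transaminase GPT fell by 3.26 in D-2 and by 1.82 in DP-3 against FIT and rose in D-3 against D-2 (2.66). GOT1 rose (1.26) and PYCR3 fell by 1.10 in D-3 against FIT, and in D-3 against D-2 IDO1 rose (2.96), PYCR3 fell by 1.14 and ODC1 fell by 1.04. Of the tested genes in D-3 against D-2, 2 of 20 synthetases, 17.6% of the carriers and 11.8% of the enzymes were called higher, beside 14.6% of all genes. In the same comparison 0 synthetases, 5.88% of the carriers and 17.6% of the enzymes (3 of 17) were called lower, beside 3.95% of all genes. In IT against FIT none of these 4 lists had a called gene, where 0.0% of all genes were called.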

How the data were processed

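Libraries were made from poly(A) RNA with a dUTP kit and read as pairs. The submitters' processing notes name cutadapt 1.9, HISAT2 2.0.4 and StringTie 1.3.4d. The authors deposited 1 table with FPKM (per kilobase and mapped depth) and an estimated count for each gene and library. How the estimated counts were made and whether strand was used is not given in the sources used here, nor is the genome build. All 57 members overlapped their GENCODE 29 (GRCh38) position, 14 with the same ends. Of 212148 counts of 1 to 40, 35.0% were multiples of 4 where 25% would be by chance. A value of 12 counts was taken as about 3 read pairs, an assumption that this share does not establish.

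Counts were rounded and tested with edgeR 4.0.16 (R 4.3.3: TMM, quasi-likelihood test, Benjamini-Hochberg adjustment over all genes tested) on the 6 libraries of each comparison, or on all 18 for the test over 6 groups. Genes needed an FPKM of 0.1 in at least 3 libraries, and a call an adjusted p below 0.05 and a 2-fold change. The members and lists were chosen with earlier results of these data known. Named were all called members (some called genes are not reported here), members with a group mean of at least 5 FPKM, the SLC3 genes and their light chains, and up to 4 called genes of each list and comparison; full statistics went to the called members with the largest changes, at least 1 FPKM and no overlap. ALPL, the overlapping and pseudogene copies and list genes outside this rule (RPTOR, ODC1, STC2, PSPH) were named after their values were seen. Alternatives were DESeq2 1.42.0, limma 3.58.1 on log2(FPKM + 0.1) and log2(FPKM + 1), median-of-ratios scaling, other filters, counts divided by 4, 1 fit of all libraries, a replicate block and leaving out each library. Scripts were tested on simulated data. In 3 against 3 libraries an exact permutation test cannot fall below p = 0.1, so none was used. D-2 and DP-3 day 1 replicates differed least (median chi-square over its expectation of 3.31 to 5.17, against 7.49 to 31.9 in the other groups).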

Additional observations from a re-analysis of the deposited data

Results flagged for a closer look

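For 6 of 29 members (20.7%), the 3 D-2 libraries and the 3 D-3 libraries lay on opposite sides of the FIT mean in FPKM, and the difference between D-3 and D-2 was called by edgeR's quasi-likelihood test. Of all genes tested, 7.88% met the same rule. The 6 include SLC7A8 and SLC6A12, whose direction the filter set, so no excess is read from these shares. SLC3A2 differed by 1.295 ± 0.176 on the log2 scale (SE, adjusted p = 0.00309) and SLC6A16 by 1.26 ± 0.31 (adjusted p = 0.0198), both higher in D-3. SLC7A6, at -1.45 ± 0.27 (adjusted p = 0.00736), and SLC38A2, at -1.07 ± 0.11 (adjusted p = 0.00169), were lower in D-3. From FIT, the log2 changes in D-2 and D-3 were -0.04 and 1.29 for SLC3A2 and -1.22 and 0.08 for SLC6A16. They were 0.84 and -0.58 for SLC7A6 and 0.30 and -0.73 for SLC38A2. Of these changes from FIT, only SLC3A2 in D-3 and SLC6A16 in D-2 were called. SLC7A8, at 1.93 ± 0.43, and SLC6A12, at 1.82 ± 0.40, were under 0.1 FPKM in all D-2 libraries and passed the filter only through D-3, so their direction was set by it and their tests count for nothing here. They were not tested in D-2 against FIT.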

How the results depend on the processing

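No called member changed direction under any alternative. Of 199 values of called members under other settings, 171 stayed called and 28 did not, and of 129 with 1 library left out, 90 stayed called and 39 did not. The number of members called in D-2 against FIT was 5, beside 2846 of 19513 genes. It was 8 with DESeq2 (3432 genes) and 2 with limma on log2(FPKM + 1) (905 genes). In D-3 against FIT it was 5, beside 1399 of 21676 genes, and 3 with limma on log2(FPKM + 1) (739 genes). In DP-3 against FIT it was 3, beside 965 of 20039 genes. It was 8 with DESeq2 (1894 genes) and 6 in 1 fit of all libraries (1619 genes). With limma it was 1 at either pseudocount (1056 genes at 0.1 and 438 at 1). In IT against FIT it was 0, and 2 with DESeq2 and in 1 fit, beside 661 and 553 of 21183 genes. In DP-3 against DP-3 day 1 it was 2, beside 1571 of 20774 genes, and 6 with no filter, beside 1972 of 46730. It was 4 with DESeq2 (2042 genes) or limma on log2(FPKM + 0.1) (2280 genes). In D-3 against D-2 it was 8, beside 3746 of 20231 genes. It was 5 at a minimum of 1 FPKM (1902 of 12344 genes) and 2 with limma on log2(FPKM + 1) (1178 of 20231 genes). Leaving out 1 library gave 3 to 7, 1 to 7, 0 to 5, 0 to 0, 1 to 4 and 6 to 8 in that order, and 14 to 23 of the members over the 6 groups, the lowest without D-2 replicate 1. Over the lists, counted once per gene called in any comparison, the synthetases went from 2 to 4 with limma on log2(FPKM + 0.1), sensing from 9 to 4, the other carriers from 6 to 1 and the enzymes from 6 to 3 with limma on log2(FPKM + 1). The carriers were 2 at a minimum of 1 FPKM and the enzymes 10 with no filter. Without 1 library the response list had 15 to 18, the synthetases 2 to 3, sensing 7 to 12, the carriers 3 to 6 (3 without D-2 replicate 2, D-3 replicate 1 or D-3 replicate 3) and the enzymes 4 to 7. The causes were not tested.

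Replicate numbers did not pair the samples: the correlations of same-numbered deviations ran from -0.034 to 0.041. With a replicate block, 3 members were called in D-2 against FIT, 4 in D-3 against FIT, 1 in DP-3 against FIT, 0 in IT against FIT, 2 in DP-3 against DP-3 day 1 and 8 in D-3 against D-2. Of all genes, 2177, 904, 164, 0, 938 and 3134 were called with the block, in that order. Without the block, 2846, 1399, 965, 0, 1571 and 3746 genes were called. Over all genes, the share of calls that were higher was 23.9% in DP-3 against DP-3 day 1 and 78.6% in D-3 against D-2, against 7.06% and 91.1% with limma on log2(FPKM + 0.1). The 0.1 FPKM filter left 26 members out of the test over the 6 groups. With no filter, 29 members differed over the groups, beside 11495 of 50119 genes. With the filter, 21 of 31 members did, beside 9683 of 25977 genes.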
